A study of Homo sapiens with 12 samples.

Results

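ABCA1, ABCG1, MYLIP, NR1H2 and NR1H3 are genes of cholesterol export and of its control by the liver X receptors (LXRs), and their RNA levels were followed in 2 human ovarian cancer cell lines with and without lestaurtinib. The 5 genes were taken by name from the 13869 genes of the deposited table; all 5 were present and all 5 passed the low-count filter, which kept 13498 genes. The genes were chosen by name with their measured levels in the 4 groups already known, so the values below are a description and carry no test. The groups were OVSAHO cells with lestaurtinib (500 nM, 24 h), OVSAHO cells with DMSO vehicle, MDAH-2774 cells with lestaurtinib at the same dose and time, and MDAH-2774 cells with DMSO vehicle, with 3 RNA sequencing libraries in each. OVSAHO is labelled as a high-grade serous and MDAH-2774 as an endometrioid ovarian cancer line, both as wild type. All cells were kept in RPMI medium with fetal bovine serum, so serum was present in every group. Lestaurtinib, an indolocarbazole, inhibits kinases including FLT3 and JAK2, and each tumour type is represented by a single line.

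LXRs are nuclear receptors that bind oxysterols, the oxidised forms of cholesterol that accumulate when a cell holds more cholesterol than it needs. They pair with a retinoid X receptor (RXR) on a DNA element made of a pair of direct repeats spaced by 4 bases, called DR4, and raise genes that move cholesterol out of the cell or limit its uptake. NR1H2 encodes LXR-beta, which most tissues express, and NR1H3 encodes LXR-alpha, best known from liver, fat and macrophages. ABCA1 passes cholesterol and phospholipid to lipid-poor apolipoprotein A-I, ABCG1 promotes efflux to mature high-density lipoprotein, and MYLIP (also called IDOL) is a ubiquitin ligase that marks lipoprotein receptors for degradation. ABCA1, ABCG1 and MYLIP are established LXR targets.

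The promoter of ABCA1 is shown because this gene had the lowest values with lestaurtinib relative to vehicle of the 5, and that of MYLIP because it is another LXR target whose levels overlapped between the groups. Both are the 250 bases before the RefSeq start (GRCh38.p14), printed 5′ to 3′ on the strand of the gene. Capitals mark a match to a DR4-type repeat, searched on both strands as GGTNA, 5 free bases and GGTNA again.
ABCA1, chr9:104928156-104928405, minus strand: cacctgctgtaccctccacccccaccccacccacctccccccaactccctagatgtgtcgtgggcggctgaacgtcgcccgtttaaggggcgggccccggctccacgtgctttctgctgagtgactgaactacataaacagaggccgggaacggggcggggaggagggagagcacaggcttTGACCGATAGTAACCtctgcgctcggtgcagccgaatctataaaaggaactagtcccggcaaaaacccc
MYLIP, chr6:16128836-16129085, plus strand: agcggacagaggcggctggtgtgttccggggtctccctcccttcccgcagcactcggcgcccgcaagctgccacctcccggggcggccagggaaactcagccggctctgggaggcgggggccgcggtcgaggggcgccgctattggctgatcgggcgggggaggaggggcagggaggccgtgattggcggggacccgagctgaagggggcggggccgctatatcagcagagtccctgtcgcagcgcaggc
The ABCA1 match lies at bases -69 to -55 from the RefSeq start, on the strand opposite to the gene, and overlaps no other motif searched. An E-box (CACGTG) lies at -147 to -142, and 3 GC boxes (GGGCGG) lie between -189 and -92. In windows of 300 bases (250 before to 50 after the start), the DR4-type repeat was present in 0.626% of 35116 windows, the E-box in 7.26% and the GC box in 45%. No window of MYLIP (1), NR1H2 (1) or NR1H3 (4) held the DR4-type repeat, and no member window held the sterol response element-type motif TCACNCCAC, which 1.13% of all windows held. Of the other LXR targets listed below, no available window held the DR4-type repeat, including those of LPCAT3 (1), lower with lestaurtinib in both lines, and SCD (1), higher in both. Elements outside these windows were not searched. The gene model of the deposited table starts 91 bases upstream of the RefSeq start of ABCA1, so the repeat lies within the outer bounds of that model. These are matches of letters within a short window, and the binding of any factor was not measured.

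Total counts ran from 32875940 to 55941446 per library over the 13869 genes. Levels are CPM, counts scaled to library sizes corrected by TMM, for comparison of 1 gene between groups, and length-scaled RPKM values from the authors' deposited table for comparison between genes. Changes are given as log2 of lestaurtinib over vehicle with their SE, from 1 edgeR fit of all 12 libraries. Of the epithelial markers, 5 of 5 were tested. Their summed level in OVSAHO was 2428 to 2583 CPM with lestaurtinib against 1391 to 1541 CPM with vehicle. In MDAH-2774 it was 1615 to 1663 CPM with lestaurtinib against 1715 to 1917 CPM with vehicle, and the genes did not move together. KRT8 averaged 835 CPM with lestaurtinib against 971 CPM with vehicle there, and KRT18 606 against 677 CPM. EPCAM (104 against 89.7 CPM), KRT7 (80.6 against 58.5 CPM) and CDH1 (8.73 against 6.67 CPM) were higher on average. Of 6 macrophage markers only CD68, a lysosomal protein that many cells make, was among the genes tested, at 8.73 to 12.5 CPM with lestaurtinib against 14.3 to 15.3 CPM with vehicle in OVSAHO and at 8.88 to 10.5 CPM with lestaurtinib against 24.1 to 29.2 CPM with vehicle in MDAH-2774. PTPRC, CD14, CSF1R, CD163 and LYZ were not among the genes tested. Of 4 fibroblast markers COL1A1 was tested, and of 4 endothelial markers CDH5, which had 1.11 to 1.79 CPM with lestaurtinib against 0 to 0.316 CPM with vehicle in OVSAHO and 11.99 to 14.7 CPM with lestaurtinib against 1.27 to 1.80 CPM with vehicle in MDAH-2774. COL1A1 had 0.746 to 1.32 CPM with lestaurtinib against 0.609 to 0.79 CPM with vehicle in OVSAHO, and 5.69 to 6.25 CPM with lestaurtinib against 3.34 to 5.77 CPM with vehicle in MDAH-2774. Of 5 ovarian and müllerian markers 4 were tested (all but MUC16). Their summed level was 432 to 482 CPM with lestaurtinib against 449.8 to 518 CPM with vehicle in OVSAHO. In MDAH-2774 it was 199 to 204 CPM with lestaurtinib against 315 to 335 CPM with vehicle. MSLN averaged 131 CPM with lestaurtinib against 90.8 CPM with vehicle in OVSAHO. PAX8 (235 against 274 CPM), WT1 (60.5 against 87.6 CPM) and SOX17 (29.2 against 30.0 CPM) were lower there on average. In MDAH-2774 MSLN (0.133 against 0.0767 CPM) and SOX17 (0.467 against 0.682 CPM) were very low, and PAX8 averaged 184 against 305 CPM. The part of cells of other types in the levels below was not tested. These are bulk samples, in which fewer cells of a type and less RNA per cell cannot be told apart. The labels do not say whether the libraries of a group came from separate cultures, so SEs and p-values reflect only how these libraries vary, which may be technical.

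ABCA1 was lower with lestaurtinib in both lines, while ABCG1 was higher in OVSAHO and lower in MDAH-2774. The levels of NR1H2 were higher without overlap in OVSAHO and overlapped between the groups in MDAH-2774, and those of MYLIP and NR1H3 overlapped in both lines. In OVSAHO, ABCG1 and NR1H2 were thus higher without overlap (2 of 5, against 15.5% of all genes tested) and ABCA1 was lower without overlap (1 of 5, against 15%). In MDAH-2774, ABCA1 and ABCG1 were lower without overlap (2 of 5, against 18.9%) and none of the 5 was higher without overlap (against 19.8%). These counts come from the contrasts with which the genes were chosen, and nothing is read from them.

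**Figure D1:**
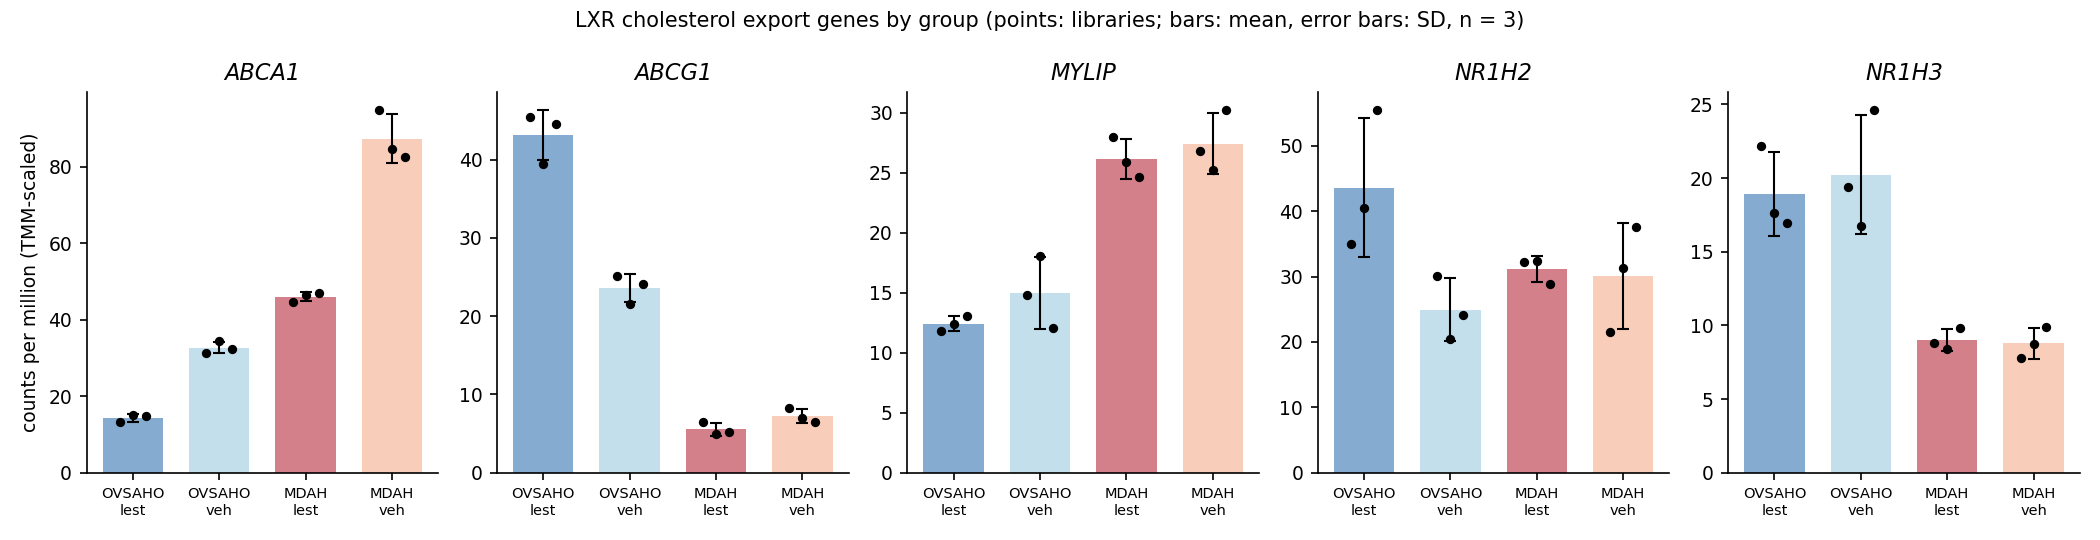
Level of each of the 5 genes in CPM on TMM-scaled library sizes (vertical axis, from 0, with its own range in each panel) in OVSAHO with lestaurtinib (lest), OVSAHO with vehicle (veh), MDAH-2774 with lestaurtinib and MDAH-2774 with vehicle. Points are libraries, bars are means and error bars are SD (n = 3); ABCA1 stands at 14.3 CPM with lestaurtinib against 32.8 CPM with vehicle in OVSAHO, and at 46.1 CPM with lestaurtinib against 87.4 CPM with vehicle in MDAH-2774.

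ABCA1, the exporter to apolipoprotein A-I (chromosome 9, 104781002 to 104928246, minus strand, 53 exon blocks in the deposited table, hg38), had 13.2, 14.98 and 14.7 CPM in the lestaurtinib libraries of OVSAHO, against 31.4, 34.5 and 32.4 CPM in the vehicle libraries. In MDAH-2774 it had 44.7, 46.4 and 47.1 CPM with lestaurtinib, against 94.9, 84.7 and 82.7 CPM with vehicle. Every lestaurtinib library thus lay below every vehicle library of its line. The raw counts behind these levels were 406 to 571 with lestaurtinib against 1230 to 1666 with vehicle in OVSAHO, and 2225 to 2408 with lestaurtinib against 3290 to 4397 with vehicle in MDAH-2774. The means were 14.3 ± 0.979 CPM with lestaurtinib and 32.8 ± 1.54 CPM with vehicle in OVSAHO (SD, n = 3 each), a log2 change of -1.20 ± 0.088 or a ratio of 0.437. They were 46.1 ± 1.20 CPM with lestaurtinib and 87.4 ± 6.51 CPM with vehicle in MDAH-2774 (SD, n = 3 each), a log2 change of -0.92 ± 0.083 or a ratio of 0.527. The log2 change in OVSAHO minus that in MDAH-2774 was -0.27 ± 0.12. Without drug the level itself was lower in OVSAHO than in MDAH-2774, by -1.42 ± 0.084 on the log2 scale, and in order of level OVSAHO with lestaurtinib came lowest, then OVSAHO with vehicle, MDAH-2774 with lestaurtinib and MDAH-2774 with vehicle. No neighbouring pair in that order overlapped.

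ABCG1, the exporter to mature high-density lipoprotein (chromosome 21, 42199689 to 42304387, plus strand, 20 exon blocks), had 45.4, 39.4 and 44.5 CPM with lestaurtinib in OVSAHO, against 25.1, 21.6 and 24.1 CPM with vehicle. All 3 lestaurtinib libraries lay above all 3 vehicle libraries, with means of 43.1 ± 3.21 CPM with lestaurtinib and 23.6 ± 1.79 CPM with vehicle (SD, n = 3 each) and a log2 change of 0.87 ± 0.13, or a ratio of 1.83. In MDAH-2774 it had 6.51, 4.95 and 5.20 CPM with lestaurtinib, against 8.29, 6.98 and 6.54 CPM with vehicle. The highest lestaurtinib library there lay just under the lowest vehicle library, and in RPKM the groups overlapped, with up to 0.653 RPKM with lestaurtinib and from 0.630 RPKM with vehicle. The log2 change was -0.39 ± 0.14 in MDAH-2774, on counts of 246 to 344 with lestaurtinib and 271 to 384 with vehicle. The change in OVSAHO minus that in MDAH-2774 was 1.26 ± 0.19, a difference opposite in sign to that of ABCA1. The 2 exporters also differed between the untreated lines in opposite directions, since ABCG1 in vehicle OVSAHO lay above vehicle MDAH-2774 by 1.70 ± 0.14 on the log2 scale. In order of level OVSAHO with lestaurtinib came highest, then OVSAHO with vehicle, MDAH-2774 with vehicle and MDAH-2774 with lestaurtinib, and no neighbouring pair overlapped in CPM.

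Per length, the relative level of the 2 exporters depended on the line and differed with the drug. The ratio of ABCA1 to ABCG1 in RPKM was 0.332 ± 0.0447 with lestaurtinib and 1.39 ± 0.175 with vehicle in OVSAHO (SD, n = 3 each). The same ratio was 8.38 ± 1.35 with lestaurtinib and 12.02 ± 0.601 with vehicle in MDAH-2774. OVSAHO cells with lestaurtinib were thus the group in which ABCG1 exceeded ABCA1 per length, with ratios of 0.289 to 0.378 over the 3 libraries against 1.25 to 1.59 in vehicle OVSAHO. The mean RPKM behind these ratios in OVSAHO was 1.22 with lestaurtinib and 2.83 with vehicle for ABCA1, and 3.69 with lestaurtinib and 2.05 with vehicle for ABCG1. In MDAH-2774 it was 4.57 with lestaurtinib and 8.40 with vehicle for ABCA1, and 0.554 with lestaurtinib and 0.701 with vehicle for ABCG1.

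**Figure D2:**
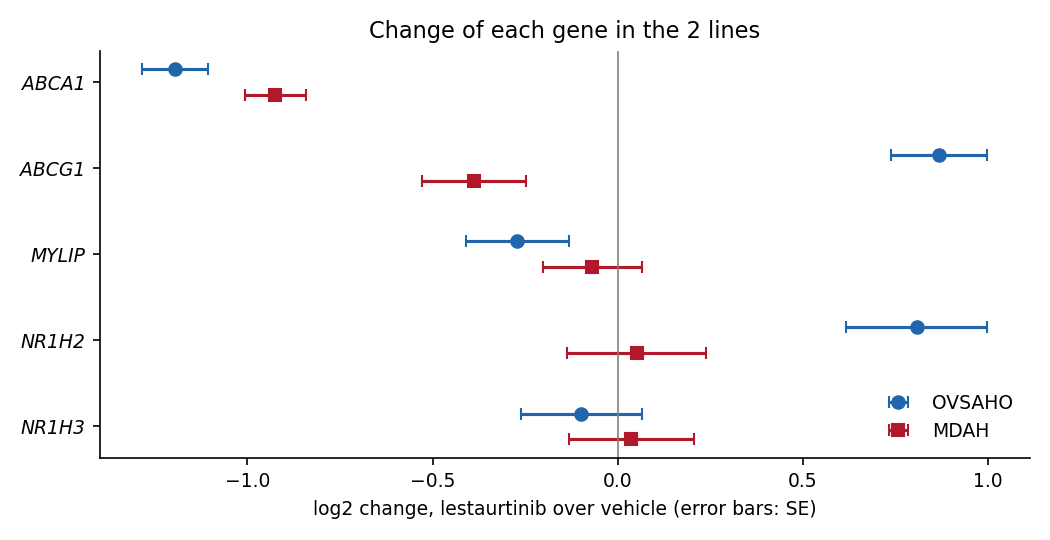
Log2 change of each of the 5 genes, lestaurtinib over vehicle (horizontal axis), in OVSAHO (blue circles) and MDAH-2774 (red squares), with error bars of 1 SE from the fit of all 12 libraries. ABCA1 lies left of 0 in both lines (-1.20 and -0.92), and ABCG1 lies at 0.87 in OVSAHO and at -0.39 in MDAH-2774.

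MYLIP, the ligase for lipoprotein receptors (chromosome 6, 16129086 to 16148248, plus strand, 7 exon blocks), had 11.8, 12.4 and 13.1 CPM with lestaurtinib in OVSAHO, against 14.9, 18.1 and 12.1 CPM with vehicle. In MDAH-2774 it had 28.0, 25.9 and 24.6 CPM with lestaurtinib, against 26.8, 25.2 and 30.2 CPM with vehicle. The groups overlapped in both lines. The log2 change was -0.27 ± 0.14 in OVSAHO, where the value ran from -0.43 to -0.13 as each library was left out in turn. It was -0.07 ± 0.13 in MDAH-2774, and the change in OVSAHO minus that in MDAH-2774 was -0.20 ± 0.19. The larger contrast for MYLIP was between the lines, with vehicle OVSAHO below vehicle MDAH-2774 by -0.87 ± 0.14 on the log2 scale, on means of 14.99 ± 2.997 CPM in vehicle OVSAHO and 27.4 ± 2.56 CPM in vehicle MDAH-2774 (SD, n = 3 each). Both OVSAHO groups lay below both MDAH-2774 groups without overlap.

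NR1H2, encoding LXR-beta (chromosome 19, 50376423 to 50383028, plus strand, 10 exon blocks), had 35.0, 40.4 and 55.4 CPM with lestaurtinib in OVSAHO, against 30.0, 20.5 and 24.1 CPM with vehicle. The groups did not overlap, but replicate 3 with lestaurtinib stood well above the other 2. The log2 change was 0.81 ± 0.19 in OVSAHO, and 0.57 without that library. In MDAH-2774 NR1H2 had 32.2, 32.4 and 28.8 CPM with lestaurtinib, against 21.5, 31.2 and 37.5 CPM with vehicle, so the vehicle libraries spanned the treated ones. The log2 change there was 0.05 ± 0.19, and as each library was left out it ran from -0.14 to 0.24. The change in OVSAHO minus that in MDAH-2774 was 0.76 ± 0.27. In order of mean level OVSAHO with lestaurtinib came highest, followed by MDAH-2774 with lestaurtinib, MDAH-2774 with vehicle and OVSAHO with vehicle. The highest group did not overlap its neighbour but overlapped MDAH-2774 with vehicle, and the other neighbours overlapped.

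In 3 of the 4 groups, all but MDAH-2774 with lestaurtinib, the order of the libraries by NR1H2 level was their order by the GC content each favoured. NR1H2 is GC-rich, with 60.9% GC in its longest GENCODE transcript, above 88.3% of the tested genes with a known value, whereas ABCA1 has 45.5%, MYLIP 45.8%, ABCG1 53.7% and NR1H3 55.4%. The median log2 deviation of the GC-rich quartile of genes minus that of the GC-poor quartile was -0.0169, 0.0338 and 0.261 in the lestaurtinib libraries of OVSAHO, against 0.062, -0.215 and -0.124 in the vehicle libraries. In MDAH-2774 it was -0.0512, 0.0314 and -0.0436 with lestaurtinib, against -0.0713, 0.0149 and 0.122 with vehicle. The library with the highest NR1H2 level in OVSAHO was also the one with the highest GC trend, and the library with the lowest NR1H2 level there was the one with the lowest. A correction added after the data were seen took off the GC trend of each library. With it, the log2 change of NR1H2 was 0.66 in OVSAHO and 0.05 in MDAH-2774. The trend was measured from the mean of the line, so any GC-linked difference between lestaurtinib and vehicle was taken off with it. Whether GC content had a part in the NR1H2 change was not tested. With the same correction ABCA1 had -1.15 in OVSAHO and -0.92 in MDAH-2774, and ABCG1 had 0.85 in OVSAHO and -0.36 in MDAH-2774.

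**Figure D3:**
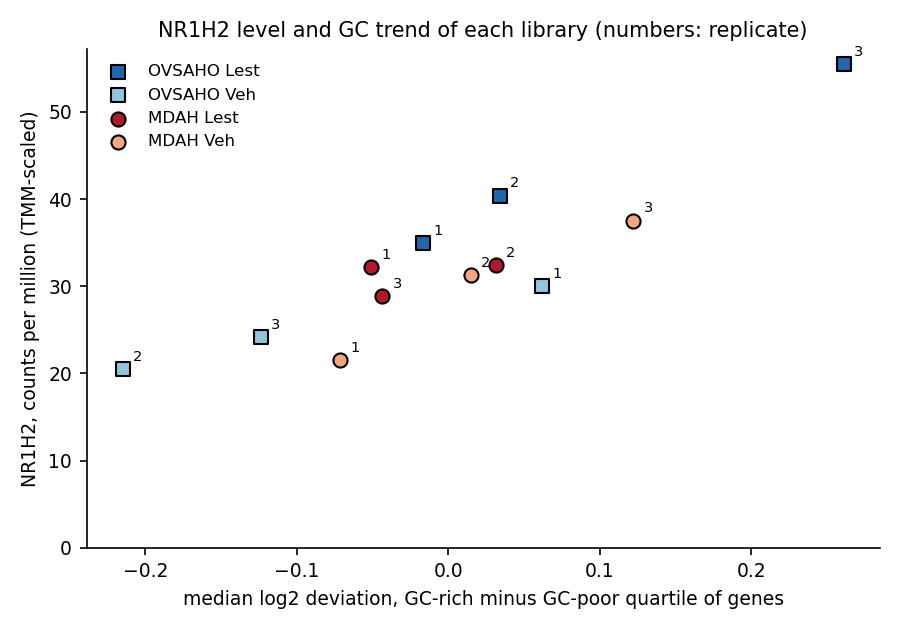
NR1H2 level in CPM on TMM-scaled library sizes (vertical axis, from 0) against the GC trend of each library, the median log2 deviation from the line mean of the GC-rich quartile of genes minus that of the GC-poor quartile (horizontal axis), for 12 libraries. Squares are OVSAHO and circles MDAH-2774, dark with lestaurtinib and light with vehicle, and numbers are replicates; lestaurtinib replicate 3 of OVSAHO lies farthest right at 0.261, with 55.4 CPM.

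NR1H3, encoding LXR-alpha and itself a known LXR target in human cells (chromosome 11, 47248300 to 47269033, plus strand, 15 exon blocks), had 22.2, 17.6 and 16.9 CPM with lestaurtinib in OVSAHO, against 19.4, 16.7 and 24.6 CPM with vehicle. In MDAH-2774 it had 8.80, 8.42 and 9.84 CPM with lestaurtinib, against 7.77, 8.73 and 9.87 CPM with vehicle. The groups overlapped in both lines, with log2 changes of -0.10 ± 0.16 in OVSAHO and 0.04 ± 0.17 in MDAH-2774. Its levels followed the line, with both OVSAHO groups above both MDAH-2774 groups without overlap: vehicle OVSAHO lay above vehicle MDAH-2774 by 1.20 ± 0.17 on the log2 scale, while NR1H2 overlapped between the vehicle groups at -0.27 ± 0.19. NR1H3 shares 172 exon bases (6.64% of its length) with ACP2 on the other strand, and whether the counting used strand is not stated, so its level is uncertain to that extent. No other member overlapped an exon of another listed gene.

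Per length, NR1H2 was above NR1H3 in every library. The RPKM ratio of NR1H2 to NR1H3 was 2.95 ± 1.06 with lestaurtinib and 1.55 ± 0.354 with vehicle in OVSAHO, and 4.31 ± 0.602 with lestaurtinib and 4.19 ± 0.672 with vehicle in MDAH-2774 (SD, n = 3 each). In OVSAHO the lowest ratio with lestaurtinib (1.95) was close to the highest with vehicle (1.92). NR1H2 was also the highest of the 5 genes per length in each group, with mean RPKM of 19.4 with lestaurtinib and 11.2 with vehicle in OVSAHO and 16.1 with lestaurtinib and 15.1 with vehicle in MDAH-2774.

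The genes most like ABCA1 were sought by Pearson correlation of log2 CPM over the 12 libraries among 11026 genes with at least 5 CPM, as a description in which all points share the line difference. LPCAT3, an LXR target that makes polyunsaturated phospholipids, was second with 0.990, beside CENPW (0.991), ELF3 (0.985), KIF21B (0.980) and UACA (0.977). With the mean of each line taken off, the 5 closest were VIM (0.989), IL1R1 (0.986), CDH2 (0.986), LPCAT3 (0.983) and RNF145 (0.983), the last a ubiquitin ligase of sterol feedback described as an LXR target in mouse liver. Of the other members, MYLIP had 0.874 over levels and 0.522 with line means taken off, ABCG1 had -0.862 and -0.456, NR1H2 had -0.489 and -0.668, and NR1H3 had -0.784 and 0.014. The LXR target SCD had 0.455 over levels and -0.966 with line means taken off, rank 11007 of 11026.

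Other genes of the pathway were set beside the members from lists of 122 names, of which 94 were tested, with edgeR's quasi-likelihood test and Benjamini-Hochberg adjustment over all 13498 genes. Of the 94, 16 were higher and 12 lower with lestaurtinib in OVSAHO, where 9.19% of all genes tested were higher and 6.54% lower. In MDAH-2774, 7 were higher and 10 lower, where 8.08% of all genes were higher and 9.05% lower. The 7 became 2 without lestaurtinib replicate 1 or 2, 3 without lestaurtinib replicate 3 and 4 without vehicle replicate 1 of MDAH-2774, and the 10 became 6 without lestaurtinib replicate 2. Of the changes that differed between the lines, OVSAHO minus MDAH-2774, 15 were positive and 6 negative, where 9.22% and 7.59% of all genes passed in these directions; the 6 became 2 without lestaurtinib replicate 1 and 3 without lestaurtinib replicate 3 of MDAH-2774. The median log2 change of the 94 was 0.01 in OVSAHO and -0.02 in MDAH-2774, beside 0.00 and 0.01 over all genes.

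Among 14 tested LXR targets other than the members, LPCAT3 fell in both lines, as ABCA1 was lower, and SCD rose in both. LPCAT3 had 25.4, 27.8 and 28.2 CPM with lestaurtinib against 38.5, 40.9 and 42.1 CPM with vehicle in OVSAHO. In MDAH-2774 LPCAT3 had 54.1, 57.1 and 53.4 CPM with lestaurtinib against 74.5, 68.0 and 69.2 CPM with vehicle. Its groups overlapped in neither line. LPCAT3 changed by -0.58 ± 0.080 in OVSAHO (edgeR, adjusted p = 8.34e-05) and by -0.36 ± 0.077 in MDAH-2774 (edgeR, adjusted p = 0.0033). SCD, the desaturase that makes oleic acid, changed by 0.71 ± 0.042 in OVSAHO (edgeR, adjusted p = 5.6e-09) and by 0.41 ± 0.042 in MDAH-2774 (edgeR, adjusted p = 3.69e-06). ACACA, which makes malonyl-CoA for fatty acid synthesis, fell by 0.24 on the log2 scale in OVSAHO (edgeR, adjusted p = 0.0138), and LPL was the other target called higher. LPL averaged 0.651 CPM with lestaurtinib and 0.18 CPM with vehicle there, its groups overlapped, and the call was lost without lestaurtinib replicate 3, vehicle replicate 1 or vehicle replicate 3 of OVSAHO, without lestaurtinib replicate 3 of MDAH-2774, and under DESeq2, the limma fits, the replicate block and a fit of each line alone. The other 9 targets in OVSAHO and 11 in MDAH-2774 did not pass, among them SREBF1 (0.27 in OVSAHO and 0.18 in MDAH-2774), FASN (0.39 and 0.34) and the lipid transfer gene PLTP (-0.04 and -0.03). The list median was 0.00 in OVSAHO and 0.13 in MDAH-2774, and 3 of the 14 were called lower in OVSAHO and 2 of the 14 in MDAH-2774. Over all genes tested, 6.54% were called lower in OVSAHO and 9.05% in MDAH-2774, and 9.19% and 8.08% higher.

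**Figure D4:**
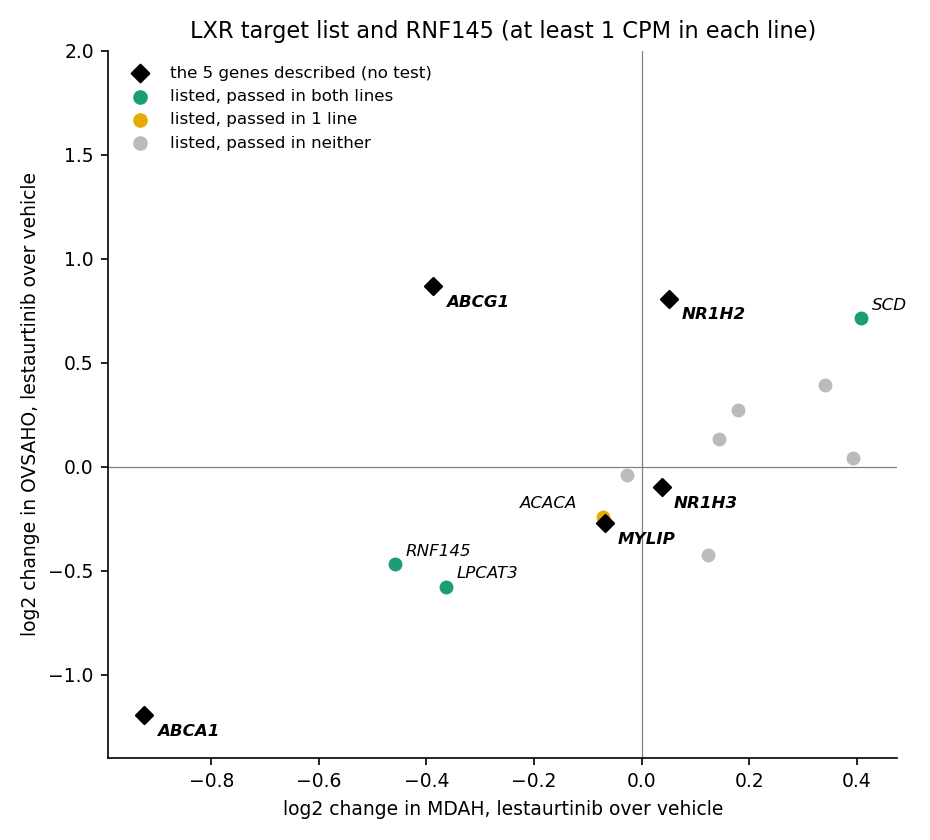
Log2 change with lestaurtinib in OVSAHO (vertical axis) against that in MDAH-2774 (horizontal axis) for the 5 genes (black diamonds, no test), RNF145 and the reported genes of the LXR target list with at least 1 CPM in each line. Green points passed an adjusted p of 0.05 in both lines, yellow in 1 line and grey in neither. ABCA1 lies with LPCAT3 and RNF145 at the lower left, ABCG1 at the upper left and SCD at the upper right. RNF145 belongs to the SREBP list. LPCAT3 and RNF145 were both among the 5 genes closest to ABCA1, so their places near ABCA1 are not separate evidence.

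Of 17 RXR partners and coregulators tested, 2 passed in OVSAHO, both lower (NCOA1 and NCOA2), where 15.7% of all genes passed in either direction. In MDAH-2774, where 17.1% of all genes passed, TBL1X was called higher and the coregulators NCOA1, NCOA3 and GPS2 lower. The count of 4 became 0 without lestaurtinib replicate 2, 1 without lestaurtinib replicate 1 or 3 or vehicle replicate 1, and 2 without vehicle replicate 2 of MDAH-2774. NCOA2 in OVSAHO was not called without lestaurtinib replicate 1 or 3 or vehicle replicate 1 or 2 of OVSAHO, or without lestaurtinib replicate 1 of MDAH-2774. The obligate partners RXRA and RXRB did not pass in either line, with log2 changes of 0.09 and 0.04 in OVSAHO and -0.06 and -0.10 in MDAH-2774. JAK2, a known target protein of lestaurtinib, did not pass either, with -0.50 in OVSAHO and 0.36 in MDAH-2774. Of 5 further ABCA and ABCG transporters tested (ABCA2, ABCA3, ABCA4, ABCA5 and ABCA7), edgeR called 0 in either line. At an unadjusted p under 0.05 the edgeR count was 0 in OVSAHO and 1 in MDAH-2774 (ABCA2, higher). DESeq2 called 0 in OVSAHO and 1 in MDAH-2774, and limma-voom and both limma fits on RPKM called 1 in OVSAHO (ABCA4, higher, as with each line fitted alone) and 0 in MDAH-2774. With the GC trend taken off, ABCA2 was called lower in OVSAHO (-0.49, edgeR, adjusted p = 0.00634) and higher in MDAH-2774 (0.45, edgeR, adjusted p = 0.0167). Without vehicle replicate 2 of MDAH-2774, edgeR called ABCA4 in both lines and ABCA2 in MDAH-2774, each higher; the other 2 vehicle libraries of MDAH-2774 had 0 counts of ABCA4.

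Genes of SREBP feedback and of lipoprotein uptake, the step that MYLIP limits, were listed too. For comparison with their counts, 9.19% of all genes tested were called higher and 6.54% lower in OVSAHO. In MDAH-2774 these shares were 8.08% and 9.05%. INSIG1, the retention factor of SREBP processing, had 49.8, 54.3 and 56.2 CPM with lestaurtinib against 34.6, 28.0 and 35.4 CPM with vehicle in OVSAHO, where the groups did not overlap. It changed by 0.71 ± 0.085 in OVSAHO (edgeR, adjusted p = 1.76e-05) and by -0.17 ± 0.079 in MDAH-2774, where its groups overlapped and it did not pass; the test of OVSAHO minus MDAH-2774 gave 0.88 (edgeR, adjusted p = 6.63e-05). RNF145, in the same list, fell by 0.47 on the log2 scale in OVSAHO (edgeR, adjusted p = 2.76e-06) and by 0.46 in MDAH-2774 (edgeR, adjusted p = 2.28e-06). The list of SREBP pathway and feedback genes held 14 tested genes, of which 3 were higher and 1 lower in OVSAHO and 1 was higher and 1 lower in MDAH-2774. Of 13 uptake genes, 3 were higher and 1 lower in OVSAHO, and 1 was higher and 1 lower in MDAH-2774, where LRP8 fell (-0.35 ± 0.068, edgeR, adjusted p = 0.00176).

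Ligand supply and acceptors were listed as well. Beside the counts below, 9.19% of all genes tested were called higher and 6.54% lower in OVSAHO. In MDAH-2774 these shares were 8.08% and 9.05%. Of 9 tested genes of oxysterol synthesis and turnover, 5 passed in OVSAHO, each of them higher (among them DHCR7, LSS, EBP and SQLE, enzymes of cholesterol synthesis), and 2 were higher and 1 lower in MDAH-2774. The 2 became 0 without any 1 lestaurtinib library or vehicle replicate 1 of MDAH-2774. They became 1 without vehicle replicate 2 or 3 of MDAH-2774, a lestaurtinib library of OVSAHO, or vehicle replicate 1 or 3 of OVSAHO. The 1 lower call was lost without any 1 lestaurtinib library or vehicle replicate 2 or 3 of MDAH-2774, or lestaurtinib replicate 2 of OVSAHO. That lower call was also lost under 4 other settings. Of 18 genes of sterol traffic and storage, 4 passed in OVSAHO, each of them higher, with the carrier STARD4 at 0.90 ± 0.13 (edgeR, adjusted p = 0.000125). The 4 became 2 without lestaurtinib replicate 1 (CAV1 and STARD4 left) or lestaurtinib replicate 2 (NPC1 and STARD4 left) of OVSAHO. In MDAH-2774 1 passed, the transfer protein gene GRAMD1A, which fell by 0.41 on the log2 scale (edgeR, adjusted p = 0.00724). With the GC trend taken off, GRAMD1A was called lower in OVSAHO too (-0.36, edgeR, adjusted p = 0.000949). Of 11 lipoprotein acceptor and remodelling genes, 5 passed in OVSAHO, each of them lower, and 2 were higher (APOA1 and CLU) and 1 lower in MDAH-2774. The 5 became 3 (APOA1, APOL6 and CLU) without any 1 lestaurtinib library of MDAH-2774, lestaurtinib replicate 1 or 3 of OVSAHO, or vehicle replicate 1 or 3 of OVSAHO. APOA1, whose protein accepts cholesterol from ABCA1, had 17.8 ± 3.02 CPM with lestaurtinib and 39.5 ± 1.497 CPM with vehicle in OVSAHO (SD, n = 3 each), a log2 change of -1.15 ± 0.18 (edgeR, adjusted p = 0.000321). In MDAH-2774 APOA1 ran the other way to ABCA1 at very low counts, with 9, 9 and 7 counts with lestaurtinib against 0, 0 and 4 counts with vehicle, and was called higher (edgeR, adjusted p = 0.0302). That call was lost without any 1 lestaurtinib library or vehicle replicate 1 or 2 of MDAH-2774. The CLU call in MDAH-2774 was lost without lestaurtinib replicate 1 or 2 or vehicle replicate 3 of that line. It was also lost under limma-voom and a fit of each line alone.

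**Figure D5:**
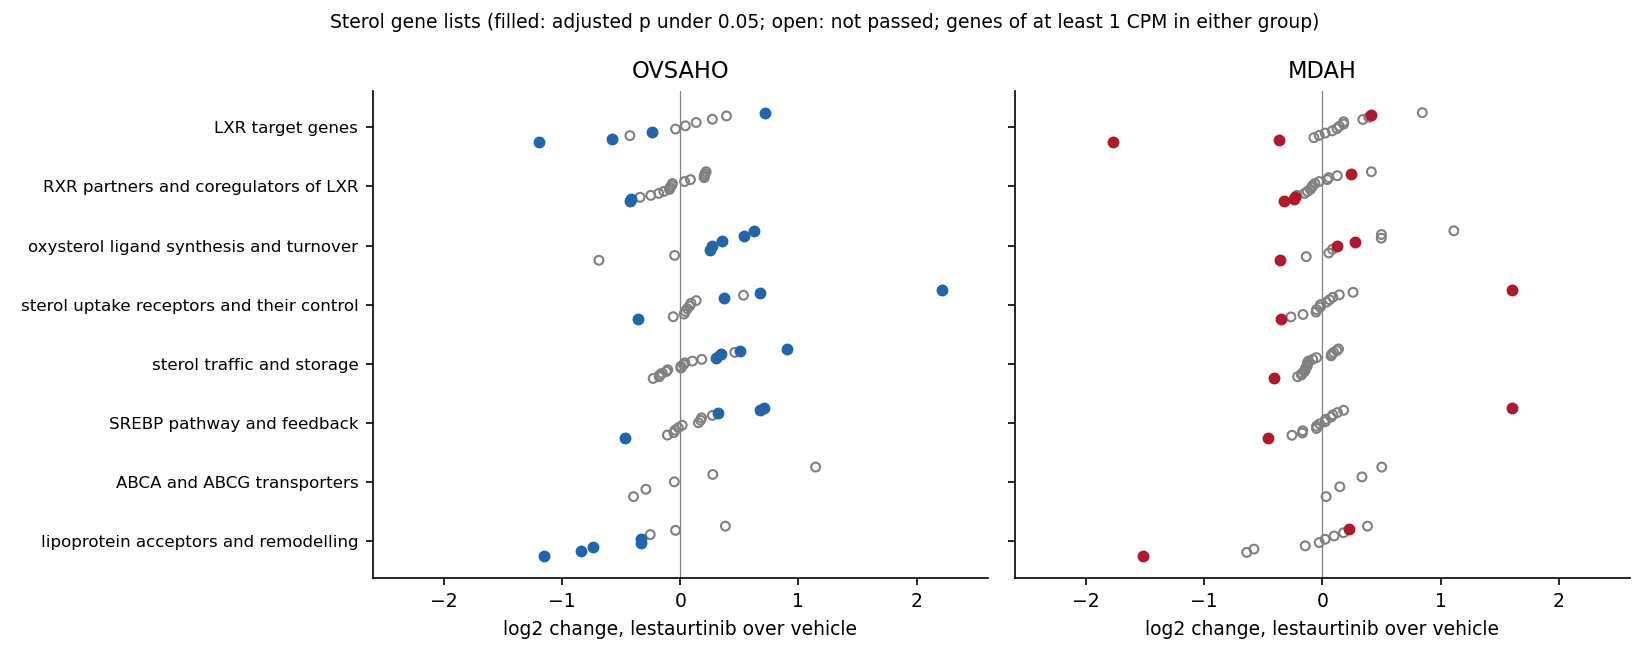
Log2 change with lestaurtinib (horizontal axis) of the genes in 8 sterol-related lists (rows), without the 5 genes described, in OVSAHO (left) and MDAH-2774 (right). Each point is a gene with at least 1 CPM in either group of the line, filled where it passed an adjusted p of 0.05 and open where it did not; the oxysterol row holds 5 filled points right of 0 in OVSAHO, and the lipoprotein row 5 left of it.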

How the data were processed

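OVSAHO and MDAH-2774 libraries with lestaurtinib or DMSO (4 groups of 3, grouped by title) were used. Per the labels' protocols, miRNeasy total RNA went into TruSeq stranded mRNA libraries. The submitters' processing notes name STAR 2.7.3a, featureCounts 2.8.2 (the listed version) and hg38; a strand setting is not given. The authors' deposited table holds unnormalized whole-number read counts per gene beside the RPKM values the authors derived from them. No listed gene had a maximum RPKM below 1.0005, so genes under about 1 RPKM throughout were not analysed here.

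Counts of all 12 libraries entered 1 quasi-likelihood model in edgeR 4.0.16 (R 4.3.3, limma 3.58.1), scaled by TMM, with a term for each group. The filterByExpr step, at a minimum count of 10, removed 371 genes and left 13498. Contrasts were lestaurtinib minus vehicle in each line, their difference (OVSAHO minus MDAH-2774) and vehicle OVSAHO minus vehicle MDAH-2774. P-values were adjusted by Benjamini-Hochberg over the 13498 genes at 0.05. The biological coefficient of variation was 0.125. No replicate pair agreed within sampling noise (chi-square over degrees of freedom 5.78 to 28.6), so each library counted as 1 sample.

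The members and lists were chosen with earlier results of these data known. Named genes were the members, a set list of sterol genes, the genes most like ABCA1 (5 by each measure), and per list and line up to 4 called genes of 1 CPM or more, ranked by adjusted p; 4 of the genes listed are counted but not reported here. Promoter sequences are RefSeq's (GRCh38.p14); 4 of the 5 members matched by symbol, all but ABCG1. GC content was that of the longest GENCODE transcript, known for 13309 tested genes (98.6%). The tests were checked on simulated data with known changes. Alternatives were RLE and upper-quartile scaling, no filter, a mean of at least 1 CPM, limma-voom, DESeq2 1.42.0, limma on RPKM with a pseudocount of 0.1 or 1, a replicate block, each line alone, leaving out each library, and a GC trend correction chosen after seeing the data. Tables and plots were made in Python 3.11.15.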

Additional observations from a re-analysis of the deposited data

Results flagged for a closer look

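ABCG1 moved in opposite directions in the 2 lines, with a log2 change of 0.87 in OVSAHO and -0.39 in MDAH-2774, a difference of 1.26. Every lestaurtinib library lay above every vehicle library in OVSAHO and below every vehicle library in MDAH-2774 on the CPM scale. The difference was not tested, because ABCG1 was chosen with these values known.

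The genes below are from the pathway lists, have at least 1 CPM in each line, and had a log2 change that differed between OVSAHO and MDAH-2774 in edgeR's test of the difference. Among genes of uptake and SREBP feedback, the difference was 0.38 for LRP8 (adjusted p = 0.012), 0.88 for INSIG1 (adjusted p = 6.6e-05), 0.23 for HMGCS1 (adjusted p = 0.033) and -0.31 for SCARB2 (adjusted p = 0.024). LRP8 itself changed by 0.03 in OVSAHO and -0.35 in MDAH-2774. Among genes of sterol traffic it was 0.51 for NPC1 (adjusted p = 0.0031), 0.81 for STARD4 (adjusted p = 0.0048), 0.64 for CAV1 (adjusted p = 0.0094) and 0.49 for NCEH1 (adjusted p = 0.025). Among synthesis enzymes it was 0.57 for DHCR7 (adjusted p = 0.00056) and 0.49 for EBP (adjusted p = 0.0025).

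Among LXR targets the difference was 0.31 for SCD (adjusted p = 0.0021), which rose in both lines. Among coregulators and transporters it was 0.44 for GPS2 (adjusted p = 0.0065), -0.33 for TBL1X (adjusted p = 0.037) and -0.79 for ABCA2 (adjusted p = 0.039). CLU, an apolipoprotein, had a difference of -0.56 (adjusted p = 0.0002), with -0.33 in OVSAHO and 0.22 in MDAH-2774, and APOL6 had -0.94 (adjusted p = 0.019).

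Some of these calls were lost without 1 library or under another setting. Without 1 library, the difference of HMGCS1 did not pass in 9 of 12, each other than lestaurtinib replicate 3 and vehicle replicate 1 of OVSAHO and vehicle replicate 2 of MDAH-2774, with values of 0.19 to 0.23. ABCA2 failed in 8, each other than lestaurtinib replicate 3 and vehicle replicate 2 of OVSAHO and vehicle replicates 2 and 3 of MDAH-2774, with values of -0.85 to -0.58. TBL1X failed in 7 (lestaurtinib replicates 1, 2 and 3 and vehicle replicates 2 and 3 of MDAH-2774, lestaurtinib replicate 2 and vehicle replicate 3 of OVSAHO), with values of -0.34 to -0.26. NCEH1 failed in 4 (lestaurtinib replicate 2 and vehicle replicate 1 of OVSAHO, lestaurtinib replicate 3 and vehicle replicate 2 of MDAH-2774), with values of 0.40 to 0.43. SCARB2 failed in 3 (lestaurtinib replicates 1 and 3 and vehicle replicate 2 of MDAH-2774), with values of -0.30 to -0.28. APOL6 failed without lestaurtinib replicate 1 of MDAH-2774, at -0.91. Among the other settings, the difference was lost in 4 for HMGCS1, 3 each for ABCA2 and NCEH1, and 2 for APOL6. It was lost in 2 for CAV1 (both limma fits on RPKM) and in 1 for LRP8 (limma on log2(RPKM + 0.1)). SCARB2 and TBL1X each lost it in 1.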

How the results depend on the processing

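The direction of ABCA1 and ABCG1 in each line was the same under every alternative run. With limma on log2(RPKM + 1), where the pseudocount shrinks changes of low genes, ABCA1 had -0.79 in OVSAHO, -0.75 in MDAH-2774 and a difference of -0.04, and ABCG1 had 0.62, -0.13 and 0.75. Leaving out 1 library gave -1.25 to -1.16 for ABCA1 in OVSAHO and -0.96 to -0.86 in MDAH-2774, and 0.80 to 0.91 and -0.52 to -0.28 for ABCG1. Pathway list counts moved most in MDAH-2774: without 1 library 2 to 8 genes were higher (7 with all) and 6 to 11 lower (10 with all), and 16 were lower with each line fitted alone, where the spread is estimated from that line only. Lower calls for the difference ran from 2 to 6 (6 with all), with 2 without lestaurtinib replicate 1 and 3 without lestaurtinib replicate 3 of MDAH-2774, and limma on log2(RPKM + 0.1) called 9 higher, against 15. Among 63 called values of the 51 genes taken by the naming rule, 23 lost the call without some library, 30 under any alternative and 0 changed sign. No scaling moved the median change of all genes by over 0.1.

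Same-numbered lestaurtinib and vehicle libraries did not deviate together (correlations of -0.20, 0.067 and -0.012 in OVSAHO and -0.051, 0.029 and -0.16 in MDAH-2774 over 11260 genes), so the main fit used no pairing. This cannot exclude that the numbers pair the samples, since differently numbered libraries of OVSAHO ran as widely, from -0.24 to 0.27. With the replicate number as a block, ABCA1 had -1.20 in OVSAHO, -0.93 in MDAH-2774 and a difference of -0.27, and ABCG1 had 0.87, -0.39 and 1.26. The block called 15 higher and 9 lower list genes in OVSAHO, 6 and 9 in MDAH-2774, and 12 and 5 for the difference, and 8 of the 63 calls were lost. Precision is limited by 3 libraries per group and, for ABCG1 in MDAH-2774, by counts of 246 to 384.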
